A study of Homo sapiens with 6 samples.

Results

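Microfibril proteins and latent TGF-beta binding proteins were followed in OVCA432 cells that received recombinant MFAP5, itself a microfibril protein. The set is a list of 10 genes: MFAP2, MFAP3, MFAP3L, MFAP4, MFAP5, FBN1, FBN2, LTBP1, LTBP2 and LTBP3, out of 19775 genes that the array platform's annotation gives alone on at least 1 probe set. Every probe set whose annotation names exactly 1 of these genes was taken, which gave 26 probe sets of the 54613 that are not array controls. OVCA432 is an established cell line of human high grade serous ovarian carcinoma, grown in medium with 10% fetal bovine serum. Cells of both groups were seeded overnight, kept in medium without serum for 24 h, and then given fresh serum-free medium. The MFAP5 group (3 samples) received recombinant human MFAP5 at 200 ng/mL and the control group (3 samples) an equal amount of solvent. RNA was taken 48 h later, and each sample, prepared independently, was put on its own Affymetrix U133 Plus 2.0 array. The line is the only one studied here, the protein was added in solution and not laid down by fibroblasts, and the sources used here do not say which host made it.

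Microfibrils are thin extracellular filaments built from fibrillins, the large cysteine-rich glycoproteins encoded by FBN1 and FBN2. Small associated glycoproteins such as MFAP2 (also called MAGP1) and MFAP5 (MAGP2) bind to fibrillin, and MFAP5 carries an RGD motif through which integrins such as alphaV beta3 can bind it. Latent TGF-beta binding proteins are relatives of the fibrillins that sit on the same filaments. LTBP1 and LTBP3 hold TGF-beta in its latent complex, while LTBP2 is a family member that does not bind latent TGF-beta. In tissue these proteins come mainly from fibroblasts and smooth muscle, and in ovarian tumours MFAP5 is known as a product of cancer-associated fibroblasts.

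With MFAP5, LTBP2 and the cells' own MFAP5 mRNA rose, and MFAP2 and LTBP1 rose by smaller steps. Under 15 alternative ways of processing, MFAP2 passed the test in 6 and LTBP1 in 5. MFAP5 and LTBP1 each passed it on 1 of 2 probe sets tested. LTBP3, MFAP3, MFAP3L and FBN2 were measured and did not pass the test, and FBN1 and MFAP4 were, apart from 1 FBN1 signal, no brighter than probe sets for RNA that the cells do not make. A probe set is a group of short probes for 1 transcript region, and its signal is in the linear units of the MAS5 algorithm. Signals of different probe sets cannot be set against each other, so no order of levels between genes is given. Tests were made on log2 signals for the 27307 probe sets whose mean log2 signal was at or above the median of all, a signal of 53.7, with limma and Benjamini-Hochberg adjustment over all of them. A probe set is called where the adjusted p is below 0.05. Of the 26 member probe sets 16 passed the filter, and they stood for 8 of the 10 genes. Of these 16, 5 were called higher, 0 were called lower and 11 were not called (limma; at an unadjusted p below 0.05, 6 were higher and 1 was lower). Over all probe sets tested 25.2% were called, 13.5% higher and 11.8% lower. Those are shares at the adjusted threshold, and no share of all probe sets was counted at the unadjusted one. Counted by the brightest probe set of each gene, 4 of 8 genes were called higher and 0 lower, against 29.9% called of the 12216 genes tested, 14.6% higher and 15.3% lower. The log2 difference was positive for 12 of the 16 and negative for 4, and it was positive for 11 and negative for 5 when arrays were centred on their medians. The median log2 difference was 0.26 over the 16 and 0.02 over all probe sets tested. Signals of the groups did not overlap for 8 of the 16, against 41% of all probe sets tested. These shares are descriptions of a short list, and no test of the list was made.

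The regions just before the gene starts are shown for LTBP2, MFAP2 and LTBP1, 3 of the 4 called genes, because LTBP1 and MFAP2 hold the searched motifs there and LTBP2, the gene with the largest change, does not. The sequences are from RefSeq (GRCh38.p14), which gives 12 starts for 8 of the 10 genes in the table used (not MFAP4 and MFAP5), and each is the 250 bases before a start on the gene's own strand. Capitals mark matches on either strand to TGACGTCA, the cAMP response element that CREB factors bind, to TGANTCA, an AP-1 element, or to CAGACA, the core of the SMAD-binding CAGA box, and no matches overlapped each other in these windows.
LTBP2, chr14:74612238-74612487, minus strand: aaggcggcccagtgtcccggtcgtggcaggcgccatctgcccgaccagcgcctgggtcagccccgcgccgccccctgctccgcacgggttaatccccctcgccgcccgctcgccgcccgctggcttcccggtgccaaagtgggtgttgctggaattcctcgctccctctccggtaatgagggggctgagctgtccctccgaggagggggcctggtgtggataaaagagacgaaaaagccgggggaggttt
MFAP2, upstream start, chr1:16981584-16981833, minus strand: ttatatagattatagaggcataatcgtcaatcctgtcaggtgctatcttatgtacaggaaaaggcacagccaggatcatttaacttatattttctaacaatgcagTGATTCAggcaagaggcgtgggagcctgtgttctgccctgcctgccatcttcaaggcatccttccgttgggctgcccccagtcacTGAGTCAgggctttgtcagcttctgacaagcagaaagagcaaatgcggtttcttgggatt
LTBP1, upstream start, chr2:32946703-32946952, plus strand: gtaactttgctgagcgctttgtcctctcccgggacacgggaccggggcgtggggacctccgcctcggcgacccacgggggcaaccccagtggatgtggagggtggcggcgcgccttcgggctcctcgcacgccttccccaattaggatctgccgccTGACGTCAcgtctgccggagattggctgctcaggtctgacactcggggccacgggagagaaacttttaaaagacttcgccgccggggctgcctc
LTBP1, next start, chr2:33134119-33134368, plus strand: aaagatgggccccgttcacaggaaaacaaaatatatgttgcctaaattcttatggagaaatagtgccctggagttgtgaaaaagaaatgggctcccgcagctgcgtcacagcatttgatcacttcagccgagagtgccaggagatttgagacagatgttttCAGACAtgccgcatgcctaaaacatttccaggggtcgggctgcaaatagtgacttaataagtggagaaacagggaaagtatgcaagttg
The LTBP2 window held none of the 3 motifs. The window of the upstream MFAP2 start held 2 matches to TGANTCA, whose first bases lie 145 and 60 bases before the start. The upstream LTBP1 start had TGACGTCA beginning 94 bases before it, and the next LTBP1 start had CAGACA beginning 89 bases before it. Of the 35116 windows of this length in the table, 1.65% held TGACGTCA, 6.57% TGANTCA and 13.6% CAGACA. Of the 12 member windows, 1, 1 and 2 held these motifs in turn, and the other windows (the downstream MFAP2 start and all starts of MFAP3, MFAP3L, FBN1, FBN2 and LTBP3) held none, except the last LTBP1 start, with a CAGACA match on the other strand. A match is a run of letters and does not show that a factor binds there.

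Signs of RNA quality overlapped between the groups, and the cells carried epithelial markers. The ratio of 3' over 5' end control signal, on the log2 scale, was 0.23 to 0.34 in control and 0.21 to 0.34 in MFAP5 arrays for ACTB (exact permutation p = 0.6, n = 3 each, two-sided), and -0.20 to -0.06 and -0.13 to -0.06 for GAPDH (exact permutation p = 0.5, n = 3 each, two-sided). With 3 arrays against 3 the smallest p of this exact test is 0.1. Of 13 serous epithelial markers, all 13 were brighter, on all 6 arrays, than each of 27 probe sets for Bacillus genes, which human cells lack. Of 13 fibroblast markers 3 were, and COL3A1, COL6A3, DCN, PDGFRA and POSTN were at or below the brightest of these Bacillus controls on every array. The summed signal of the fibroblast markers was 456 to 563 in control and 548 to 578 in MFAP5 arrays. That of the epithelial markers was 98774 to 109659 in control and 111537 to 120359 in MFAP5 arrays; the sums are over different probe sets and can be read between groups only. Of the epithelial markers 6 were called higher, 2 lower and 5 not, beside 14.6% higher and 15.3% lower over all genes tested. Their median log2 difference was 0.16, against -0.01 over all genes tested. The largest changes were in the tumour antigens MUC16 (1.86) and MSLN (1.22), in WFDC2 (-0.77) and in the tight junction gene CLDN3 (0.72). Neither of the 2 fibroblast markers tested was called: ACTA2 had a log2 difference of -0.33 ± 0.23 (SE, limma adjusted p = 0.332) and COL1A1 one of 0.06 ± 0.17 (limma adjusted p = 0.832), whose sign turned with quantile normalization, with centring on array medians, and without control replicate 1 or MFAP5 replicate 3. Of the 9 endothelial and leukocyte markers 7 had a probe set of their own and none was above the Bacillus control on all 6 arrays. Their summed signal was 230 to 265 in control and 274 to 384 in MFAP5 arrays, and their part in the results was not tested. The 2 that passed the filter, VWF and CDH5, did so through the MFAP5 arrays, with control means below the filter's signal of 53.7. VWF signals were 47.8, 13.2 and 74.0 in control and 98.4, 90.5 and 63.1 in MFAP5 arrays, and 1 of the 3 control arrays was above the Bacillus control.

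LTBP2 had the largest change of the set, and both of its probe sets rose. On the brighter, 204682_at, the control arrays had signals of 535, 481 and 434, and the MFAP5 arrays 1002, 860 and 901. Every MFAP5 array was above every control array, and the lowest was well clear of the highest control. The mean rose 1.91-fold, from 484 ± 51 to 921 ± 73 (SD, n = 3 each). The log2 difference was 0.93 ± 0.11 (SE, 95% interval 0.69 to 1.17, limma adjusted p = 0.000237). The other probe set, 223690_at, had 90.5, 120.6 and 159.3 in control and 305, 353 and 308 in MFAP5 arrays, again with no overlap. It rose 2.67-fold (log2 difference 1.42 ± 0.21 SE, 95% interval 0.95 to 1.88, limma adjusted p = 0.000935). The intervals of the probe sets overlap, and the difference between them was not tested. Both stayed called in every alternative that tested them, the first with log2 differences of 0.79 to 1.18 over 15 alternatives and the second with 1.12 to 1.62 over 13. A signal from a whole culture does not tell a rise per cell from a rise in the share of cells that make the mRNA. LTBP2 and LTBP3 each carry the other's symbol among their older names, and here both were matched through the Entrez identifier.

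LTBP1, the carrier first known for latent TGF-beta, rose by a small step on 1 of its 2 probe sets. On 202729_s_at the control signals were 2015, 2072 and 2048 and the MFAP5 signals 2451, 2312 and 2436. The groups were narrow and did not overlap. The rise was 1.17-fold, with a log2 difference of 0.23 ± 0.06 (SE, 95% interval 0.09 to 0.37, limma adjusted p = 0.0262). The call depended on single arrays: without control replicate 1 or 2 or MFAP5 replicate 1, 2 or 3 the adjusted p was 0.0571 to 0.0815, and it stayed called only without control replicate 3. The call also ended with centring on array medians (log2 difference 0.09, adjusted p = 0.351) or on hybridisation controls (adjusted p = 0.427), without the filter (0.0516), without an intensity trend (0.0815) and with the mean of both probe sets (0.0936). On 202728_s_at the control signals were 550, 720 and 538 and the MFAP5 signals 901, 650 and 618. Here the groups overlapped, because control replicate 2 was above MFAP5 replicates 2 and 3, and the probe set was not called (log2 difference 0.26 ± 0.16 SE, limma adjusted p = 0.28), with 0.086 without MFAP5 replicate 1 and 0.39 without control replicate 2. Both probe sets are of the _s_at type, whose probes match several transcripts, so the data do not say from which of the LTBP1 starts shown above the mRNA came.

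LTBP3, which like LTBP1 binds the latent complex, did not pass the test on any of its 3 probe sets. On the brightest, 219922_s_at, the control signals ran from 270 to 446 and the MFAP5 signals from 348 to 533, so the groups overlapped over most of their range. Its log2 difference was 0.26 ± 0.21 (SE, 95% interval -0.19 to 0.72, limma adjusted p = 0.384), and with 1 array left out it lay between 0.054 (without control replicate 1) and 0.42 (without MFAP5 replicate 3). The interval allows a change as large as that of LTBP1 and does not show that LTBP3 stayed level. The _x_at probe set 227308_x_at, of a type whose probes can match other genes, had 0.14 ± 0.20 (limma adjusted p = 0.643; 0.019 without MFAP5 replicate 2 and 0.25 without control replicate 1), and 237144_at had 0.69 ± 0.44 (limma adjusted p = 0.282). The last value was carried by MFAP5 replicate 1, with 172 against 55.0 and 86.4 on the other MFAP5 arrays and 38.7, 55.7 and 91.1 in control, and it was 0.25 without that array.

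**Figure D1:**
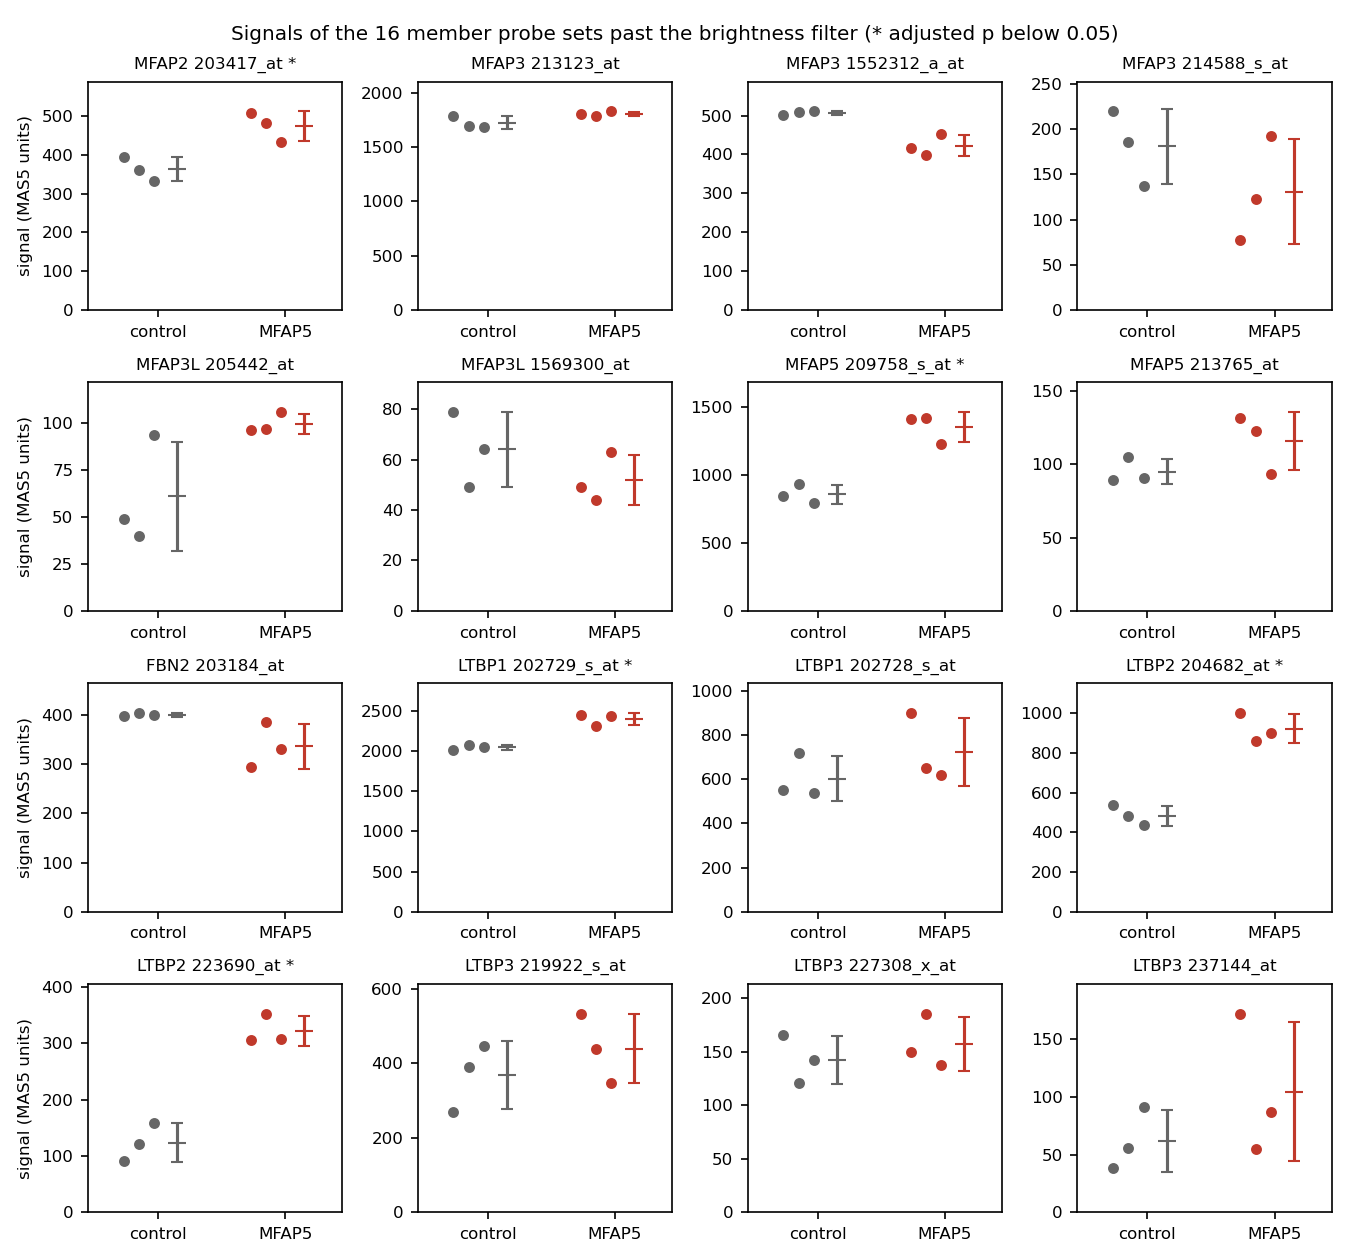
Signals (MAS5 units, linear axes from 0) of the 16 member probe sets past the brightness filter, with a dot for each array, and the mean and SD of the 3 arrays beside them; stars mark the 5 probe sets with adjusted p below 0.05. Groups are well apart for LTBP2 and for MFAP5 209758_s_at, and overlap for all 3 LTBP3 probe sets.

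MFAP5, the gene of the protein that was added, rose on the brightest of its 3 probe sets. That probe set is of the _s_at type, whose probes match several transcripts. On 209758_s_at the control signals were 844, 934 and 797 and the MFAP5 signals 1415, 1423 and 1227. The lowest MFAP5 array lay above the highest control array. The rise was 1.58-fold, from 858 ± 69 to 1355 ± 111 (SD, n = 3 each), a log2 difference of 0.66 ± 0.10 (SE, 95% interval 0.45 to 0.87, limma adjusted p = 0.000829). It was called in all 15 alternatives, with log2 differences of 0.47 to 0.73. The dimmer probe set 213765_at read 89.3, 104.6 and 90.5 in control and 131, 122 and 93.2 in MFAP5 arrays. MFAP5 replicate 3 lay within the control range, and the probe set was not called (log2 difference 0.27 ± 0.22 SE, 95% interval -0.21 to 0.76, limma adjusted p = 0.39). The third, 213764_s_at, was below the filter. It read 22.5, 25.2 and 24.3 in control, all at or below the brightest Bacillus control of their arrays, and 33.8, 48.0 and 27.6 in MFAP5 arrays, of which 2 were above it. Its groups did not overlap, and it was not called when tested without the filter (limma adjusted p = 0.547).

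MFAP2, the other small fibrillin-binding glycoprotein of the set, has 1 probe set, 203417_at. The control signals were 395, 361 and 333 and the MFAP5 signals 506, 483 and 432. All 3 MFAP5 arrays were above all 3 control arrays, though the gap from 395 to 432 was smaller than the range within either group. The rise was 1.31-fold (363 ± 31 to 474 ± 38, SD, n = 3 each), with a log2 difference of 0.38 ± 0.12 (SE, 95% interval 0.12 to 0.65, limma adjusted p = 0.0391). The call was near the threshold and ended when control replicate 2 (adjusted p = 0.0934) or 3 (0.0962) was left out, and without MFAP5 replicate 1 (0.109) or 2 (0.117). It was also lost with quantile normalization (limma adjusted p = 0.0663), with centring on array medians (0.144) or hybridisation controls (0.207), without the filter (0.0618) and without an intensity trend (0.0509).

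The fibrillins, which form the backbone of the microfibril, gave no call. FBN2 was measured on 1 of its 3 probe sets, 203184_at, with control signals of 398, 405 and 401 and MFAP5 signals of 294, 386 and 332. All 3 MFAP5 arrays were below the control arrays and more scattered than them. The log2 difference was -0.26 ± 0.13 (SE, 95% interval -0.55 to 0.03, limma adjusted p = 0.174). It passed the threshold only with centring on array medians (-0.40, adjusted p = 0.0392), a scaling that moved the median of all probe sets tested by -0.14. The other FBN2 probe sets read 12.3 to 40.1 over the 6 arrays. FBN1, the main fibrillin of adult tissue, was below the filter on all 3 probe sets. On 202766_s_at the control signals were 7.89, 22.2 and 19.7 and the MFAP5 signals 20.9, 35.2 and 53.5, and only MFAP5 replicate 3 was above the Bacillus control of its array. The other FBN1 probe sets were at or below that control on all 6 arrays, with signals of 1.21 to 24.3. No fold is given for FBN1.

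MFAP4, a fibrinogen-related glycoprotein of elastic fibres, was at the bottom of the signal range. Its 1 probe set read 3.27, 3.0 and 2.46 in control and 3.26, 2.03 and 3.84 in MFAP5 arrays, against 26.4 to 55.9 for the brightest Bacillus control. Of the 10 member probe sets below the filter, 0 were above that control on all 6 arrays. Tested without the filter 0 of the 10 were called, beside 10.3% of all probe sets, and the smallest adjusted p was 0.317 (limma, FBN1 202766_s_at). An unadjusted p below 0.05 was reached by 0 of the 10, and the share of all probe sets at that threshold was not counted. Of the 16 past the filter 14 were above the Bacillus control on all 6 arrays.

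**Figure D2:**
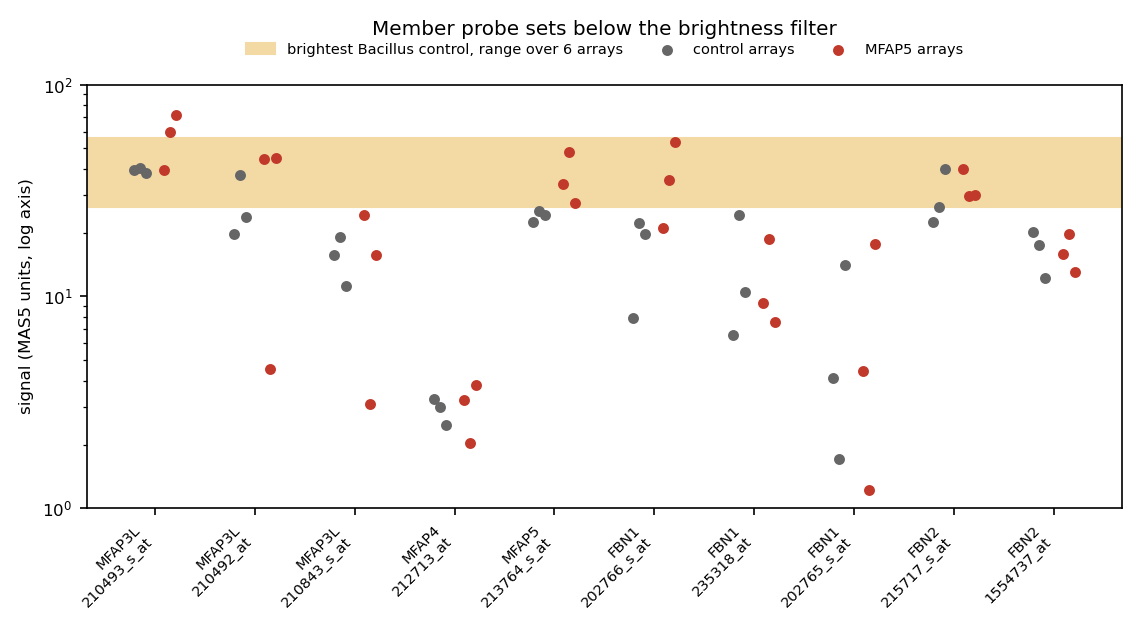
Signals (MAS5 units, log axis) of the 10 member probe sets below the brightness filter, with a dot for each array and a band for the brightest Bacillus control, which was 26.4 to 55.9 over the 6 arrays. MFAP4 lies far under the band, and most FBN1 signals lie under it in both groups.

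MFAP3 and MFAP3L bear the microfibril name but are membrane proteins with an immunoglobulin-like domain. The brightest MFAP3 probe set, 213123_at, hardly differed, with 1790, 1695 and 1686 in control and 1801, 1786 and 1829 in MFAP5 arrays. Its log2 difference was 0.07 ± 0.07 (SE, 95% interval -0.08 to 0.22, limma adjusted p = 0.507), and the sign turned when arrays were centred on their medians or all MFAP3 probe sets were averaged. The second, 1552312_a_at, had 502, 508 and 511 in control and 417, 399 and 453 in MFAP5 arrays. These groups did not overlap and the MFAP5 arrays were the lower, but the probe set was not called (log2 difference -0.26 ± 0.10 SE, limma adjusted p = 0.0921) except with centring on array medians (-0.40, adjusted p = 0.0181). The third, 214588_s_at, had -0.54 ± 0.31 (limma adjusted p = 0.241), with overlapping groups, and moved to -0.21 without MFAP5 replicate 1 and -0.87 without MFAP5 replicate 3. The 95% interval of the first, -0.08 to 0.22, and that of the second, -0.49 to -0.03, overlap between -0.08 and -0.03. The difference between them was not tested.

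MFAP3L was dim, with 2 of 5 probe sets past the filter. On 205442_at the control signals were 49.0, 39.9 and 93.8 and the MFAP5 signals 96.0, 96.8 and 105.7. The groups just failed to overlap, because control replicate 3 was close to the MFAP5 arrays. The log2 difference was 0.81 ± 0.32 (SE, 95% interval 0.09 to 1.52, limma adjusted p = 0.0943), and without control replicate 3 it was 1.17 and was called (adjusted p = 0.0145). Without control replicate 2 it was 0.55 (adjusted p = 0.262), and with all MFAP3L probe sets averaged 0.26 (adjusted p = 0.532). The control signal of replicate 1 was below the brightest Bacillus control of its array. The other probe set past the filter, 1569300_at, went the other way, with -0.29 ± 0.29 (limma adjusted p = 0.507) and overlapping groups. The 3 below the filter read 3.10 to 71.6 over all arrays.

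**Figure D3:**
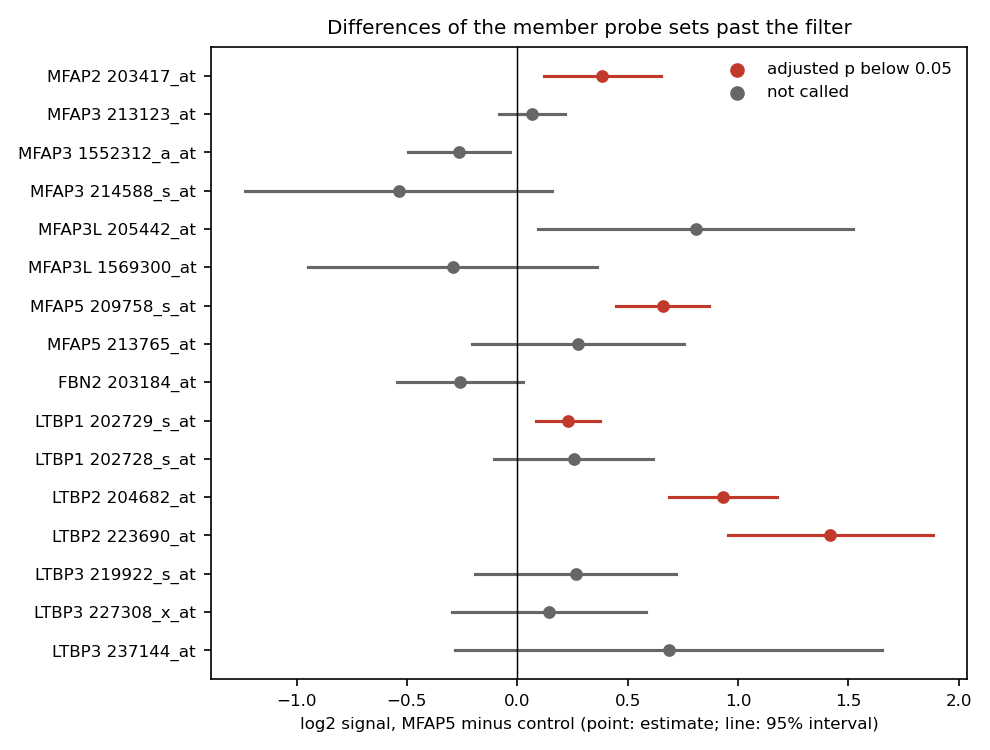
Log2 difference in signal (MFAP5 minus control) of each of the 16 member probe sets past the filter, with the 95% interval of the limma fit; red marks the 5 called. All 5 called lie above 0, from 0.23 (LTBP1) to 1.42 (LTBP2 223690_at), and the intervals of dim probe sets such as LTBP3 237144_at are the widest.

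Genes that work with microfibrils were taken as lists and described by the brightest probe set of each gene. Of 26 other microfibril and elastic fibre genes 17 were tested, of which 3 rose, 1 fell and 13 were not called, beside 14.6% higher and 15.3% lower over all genes tested; the median log2 difference was 0.21 against -0.01 over all genes tested. LOXL4, an enzyme of the lysyl oxidase family that crosslinks elastin and collagen, had signals of 44.2, 54.6 and 37.1 in control and 148, 151 and 120 in MFAP5 arrays. Its control mean of 45.3 is below the filter's signal and 2 of the 3 control arrays were above the Bacillus control, so it passed the filter through its MFAP5 arrays and its call is a description only. Its log2 difference was 1.64 ± 0.25 (SE, limma adjusted p = 0.00105), and 0.99 with 50 added to each signal. Its relative LOXL1 fell by 0.70 (SE 0.10, limma adjusted p = 0.000657), from a signal of 799 ± 46 to 493 ± 27 (SD, n = 3 each). The fibulins EFEMP1 (log2 difference 1.17 ± 0.08, limma adjusted p = 6.92e-06) and EFEMP2 (0.78 ± 0.10, limma adjusted p = 0.000351), the second of which is needed for elastic fibres to form, rose. Named after their values were seen, HSPG2 (higher) and THSD4 (lower) were called as well when control replicate 3 was left out (limma adjusted p = 0.0359 and 0.0272). The list also had 4 genes higher on hybridisation controls, with the replicate block, and without control replicate 2 or MFAP5 replicate 2 or 3. With the stricter filter 2 were higher, and on array medians 2 were lower.

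Few genes of the cargo of these filaments passed the brightness filter. Of 12 TGF-beta family ligands and their other carriers 4 were tested. Of these 1 rose, 0 fell and 3 were not called (median log2 difference 0.06), beside 14.6% higher and 15.3% lower over all genes tested. The 1 that rose was TGFB2, with a log2 difference of 0.39 ± 0.10 (SE, limma adjusted p = 0.0181), and its call ended without control replicate 1 (adjusted p = 0.0685) or 2 (0.0573) or MFAP5 replicate 3 (0.0571), and with centring on array medians or hybridisation controls. The number called lower was 1 with centring on array medians (BMP7, named after its values were seen, limma adjusted p = 0.0234), without control replicate 3 (BMP7 again, 0.0461) and without an intensity trend. Of 12 genes that release latent TGF-beta, 11 had a probe set of their own and 10 were tested: 7 rose, 0 fell and 3 were not called (median 0.82), beside 14.6% higher over all genes tested. Those with the largest change were urokinase (PLAU, log2 difference 1.58 ± 0.21), thrombospondin (THBS1, 1.26 ± 0.08) and the integrin subunits ITGB3 (1.10 ± 0.07) and ITGAV (1.05 ± 0.09), with limma adjusted p from 4.74e-06 to 0.00055. Several of these integrins belong to the route that the study linked to MFAP5 on these samples, so their direction is not independent evidence. This list, like the others, was chosen with earlier results of these data known. Its count beside the share over all genes is therefore a description only, also for PLAU and THBS1.

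Of 14 TGF-beta receptors and SMAD genes 12 were tested, of which 5 rose, 1 fell and 6 were not called (median log2 difference 0.27), beside 14.6% higher and 15.3% lower over all genes tested. SMAD3, which carries the TGF-beta signal to the nucleus, rose by 1.14 ± 0.08 (SE, limma adjusted p = 1.18e-05). The feedback inhibitor SMAD7 rose by 0.91 ± 0.16 (limma adjusted p = 0.00234) and SKIL, a corepressor of SMADs, by 0.66 ± 0.12 (limma adjusted p = 0.00267). The ubiquitin ligase SMURF1 had 0.34 ± 0.11 (limma adjusted p = 0.0482), and its call was lost without any 1 of the 6 arrays (adjusted p = 0.0574 to 0.137). The 1 that fell was its relative SMURF2, named after its values were seen (log2 difference -0.30 ± 0.08 SE, limma adjusted p = 0.0159; 0.0507 without MFAP5 replicate 1, 0.0729 with centring on hybridisation controls and 0.0773 without an intensity trend). The number that rose was 3 without control replicate 1 or 2 or MFAP5 replicate 1 or 2, with centring on array medians or hybridisation controls, and without the brightness filter. Of 7 Notch receptors and ligands 5 were tested. Of these 1 rose, 0 fell and 4 were not called (median 0.03), beside 14.6% higher and 15.3% lower over all genes tested. Among the ligands, the releasing genes and the Notch genes, 0 were lower by limma at an unadjusted p below 0.05. The 1 was JAG1, a Notch ligand that MFAP5 can bind (log2 difference 0.28 ± 0.09 SE, limma adjusted p = 0.0365), and its call was lost without control replicate 1 or 2 or MFAP5 replicate 2 or 3 (adjusted p = 0.111 to 0.131), with centring on array medians (0.268) or hybridisation controls (0.196), without the filter (0.0682) and without an intensity trend (0.129).

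**Figure D4:**
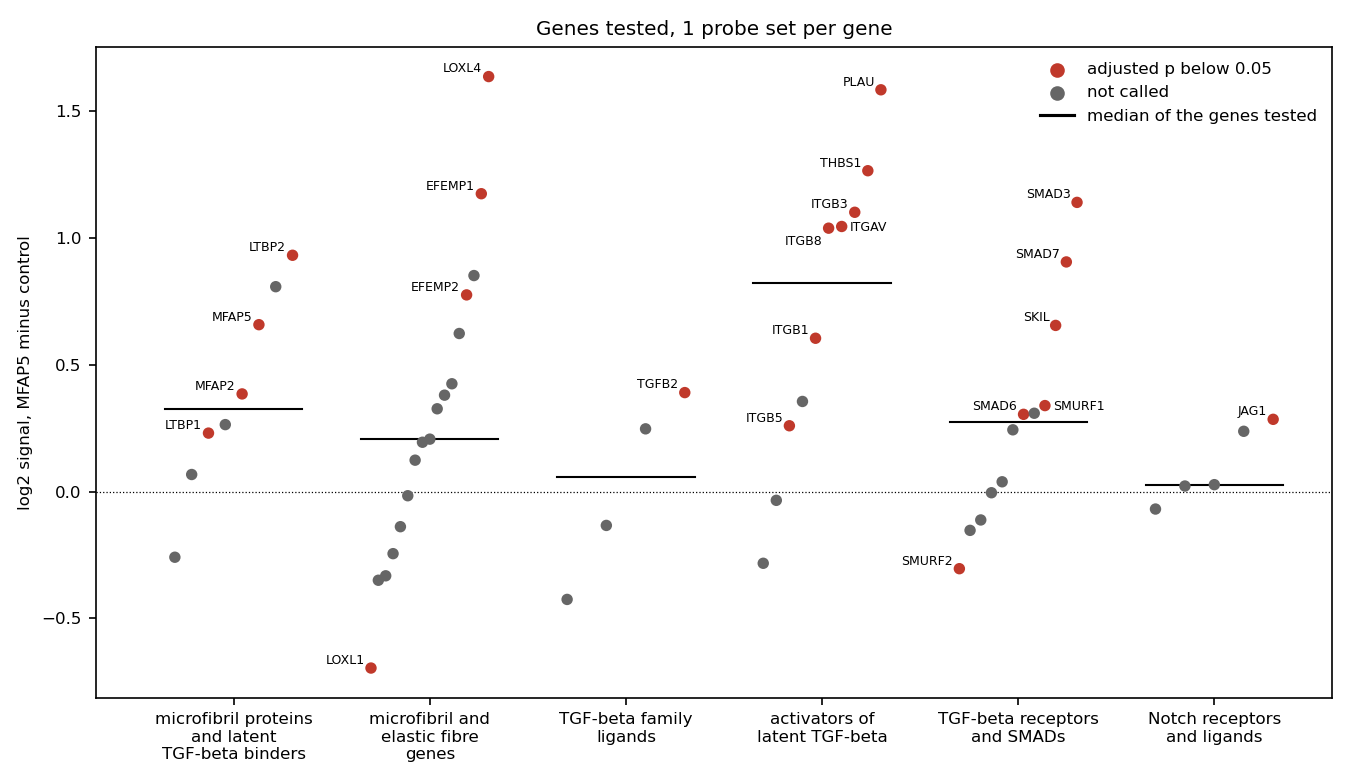
Log2 difference in signal (MFAP5 minus control) of each gene tested, by its brightest probe set, for the microfibril and latent TGF-beta binding genes and for 5 related lists; red dots are called, and bars are medians. The microfibril set has 4 called genes, all above 0, and LOXL1 and SMURF2 are the called genes below 0.

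By the shape of their signals over the 6 arrays, the genes closest to MFAP5 among 12208 others were ARHGEF28, TIMP3 and BCAM. Likeness was the root mean square difference of log2 signals centred on each gene, which was 0.03, 0.05 and 0.06 for these, against a median of 0.39 over all genes compared. For LTBP2 the closest were YPEL5 (0.05), ALDOC (0.06) and DDIT3 (0.06), against a median of 0.51. All these genes have a log2 difference near that of the gene they were matched to (0.56 to 0.70 and 0.94 to 0.995). With 6 arrays in 2 groups the measure mostly reads the size of that difference.

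The calls of the set differed in how they held when the processing was varied. LTBP2 and MFAP5 209758_s_at kept theirs in each alternative that tested them, while MFAP2 was called in 6 of 15 alternatives and LTBP1 202729_s_at in 5 of 15. None of the 5 changed sign.

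**Figure D5:**
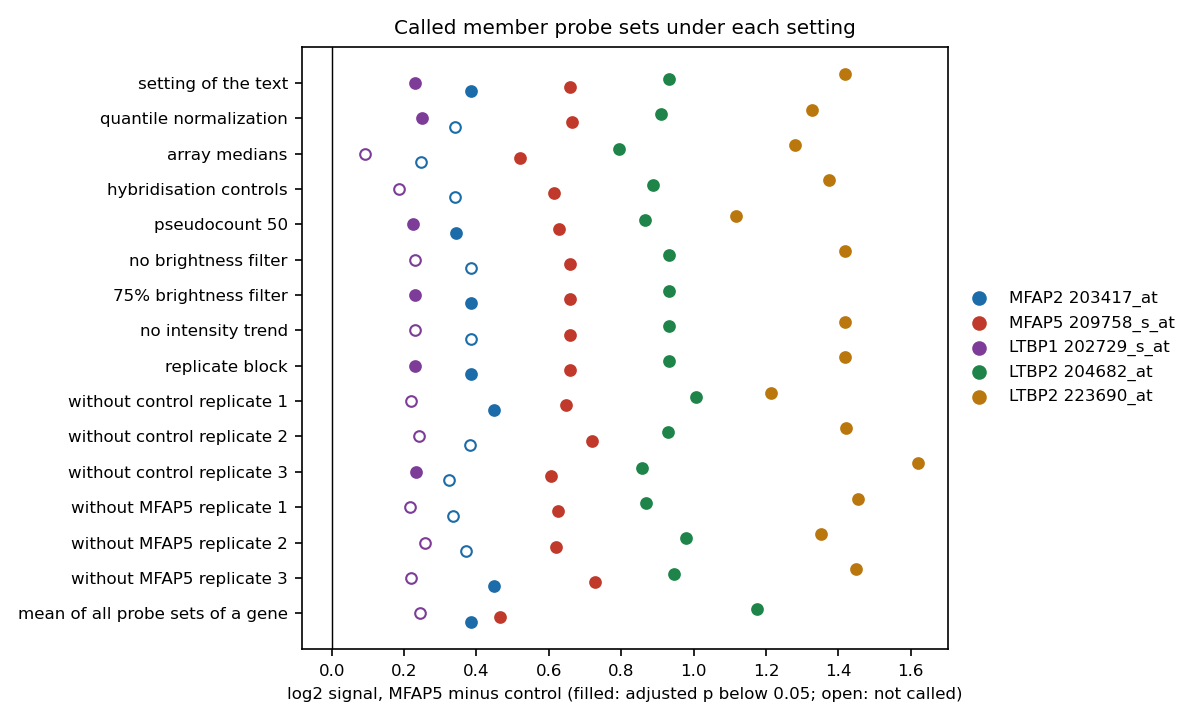
Log2 difference (MFAP5 minus control) of the 5 called member probe sets in the setting of the text and in each alternative, which are listed on the vertical axis; filled dots have adjusted p below 0.05 and open dots do not. LTBP2 and MFAP5 dots are filled throughout, and most MFAP2 and LTBP1 dots are open; LTBP2 223690_at has no dot of its own under the stricter filter and in the averaged probe sets.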

How the data were processed

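The deposited values are linear intensity, as MAS5 signals, and the submitters' processing notes name MAS5 alone, without a version. The trimmed mean of each array, with 2% left out at each end, was 500.07, so the authors had scaled arrays to 1 target, which hides any change common to most transcripts. RNA input was 100 ng per sample, per the labels. No read depth exists for arrays; their number limits the precision, and signals of dim probe sets scatter widely on the log scale.

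Groups and replicate numbers came from sample titles. Probe sets were named by the platform annotation: 41091 had 1 symbol, 1801 several and 11721 none listed, and 41037 of the first were matched to RefSeq (GRCh38.p14) by Entrez identifier. The 62 control probe sets were left out. Signals were taken to log2, those below the median mean were removed, and the test was that of limma 3.58.1 (R 4.3.3; lmFit, eBayes with an intensity trend, two-sided). The fit was also run on simulated data with independent normal noise and few changed probe sets. That setting differs from these data, where 25.2% of the probe sets tested were called. Genes stood by their brightest probe set. Of each related list up to 4 called genes with the largest change were named, or the 2 of smallest p in a list without calls; the 3 genes nearest in profile to MFAP5 and to the member with the smallest adjusted p were named. The members and lists were chosen with earlier results of these data known. Alternatives were another scaling, an added 50, other filters, no trend, a replicate block, averaged probe sets and leaving out each array.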

Additional observations from a re-analysis of the deposited data

How the results depend on the processing

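Of 223 values of member probe sets under the alternatives, 199 kept direction and side of the threshold, 19 lost a call, 3 gained one and 2 turned sign. The 2 were MFAP3 213123_at, not called, at -0.072 with centring on array medians and -0.24 with averaged probe sets; COL1A1, not called, turned to -0.045 with quantile normalization, -0.080 on array medians, -0.019 without control replicate 1 and -0.0012 without MFAP5 replicate 3 (up to 0.14 without MFAP5 replicate 1). Member probe sets called higher fell from 5 to 3, and genes from 4 to 2, with centring on array medians or hybridisation controls, without the brightness filter and without an intensity trend; on array medians 2 probe sets and 1 gene were called lower, where all probe sets gave 2302 higher and 5975 lower against 3679 and 3209. Leaving out 1 array gave 3 to 5 probe sets and 2 to 4 genes higher, and none lower. The share of all probe sets called, 25.2%, was 15.6% on hybridisation controls, 10.3% without the filter, 38.5% with the stricter filter, and 17.0% to 24.4% with 1 array left out. The causes were not tested, and other filters also changed the number of probe sets tested. Titles number the samples 1 to 3 in each group. Same-numbered samples correlated in their deviations at 0.09, -0.01 and 0.17, and differently numbered ones at -0.18 to 0.10. With 3 arrays per group these values cannot show whether same-numbered samples were handled together. With the replicate block 5 member probe sets were called higher and 0 lower, and 29.3% of all were called.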
